A study of Mus musculus with 9 samples.

Results

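Metalloproteinases cut proteins of the extracellular matrix and of the cell surface with the help of a zinc ion, and tissue inhibitors (TIMPs) block them. The genes described here were all rows of the deposited count table whose mouse symbol placed them in 1 of 4 families: matrix metalloproteinases (Mmp, 23 genes), ADAMs (27 genes), ADAMTS proteases (19 genes) and TIMPs (4 genes). They were 73 of the 54232 genes in the table, taken by symbol. RNA-seq was done on primary mouse embryonic neural stem cells treated with sh900 or sh902, which are short hairpin RNAs against Phf2, or with shNT, a hairpin with no target. Each treatment had 3 libraries, and in each the titles mark 1 library as 30 August and 1 as 3 September and leave 1 undated. The tissue was labelled as brain subventricular zone. All cells grew on laminin with 10 ng/mL of FGF and 20 ng/mL of EGF, and RNA was taken 3 days after treatment. The labels do not say whether the libraries came from separate cultures or animals, nor what the dates mark, so a p-value here speaks to how far these libraries scatter, some of which may be technical.

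The 4 families work on overlapping substrates. Membrane-type MMPs (among them Mmp14 to Mmp17 and Mmp24) sit on the cell surface, where Mmp14 activates the secreted gelatinase Mmp2. ADAM10 and ADAM17 are the main sheddases, which cut membrane proteins such as Notch, the amyloid precursor protein and EGF-family ligands. ADAM11, ADAM22 and ADAM23 lack an active protease site and act as adhesion proteins and receptors on neural cells. ADAMTS1, ADAMTS4 and ADAMTS5 cut the proteoglycans of the brain matrix, and ADAMTS2, ADAMTS3 and ADAMTS14 trim procollagens. In the subventricular zone, neural stem cells contact a matrix rich in such substrates.

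Totals ran from 23212472 to 32392496 counts per library. Phf2, a histone demethylase of the KDM7 family and the target of both hairpins, was at 26.2% to 54.2% of the same-label control with sh900 and at 32.9% to 58.9% with sh902, so all 6 hairpin libraries were below their controls. All 10 neural stem and progenitor markers examined passed the expression filter, and their summed level was 5243 to 9304 CPM (the share of a library's counts, scaled to 1000000) in the hairpin libraries, against 3743 to 5396 CPM in the shNT libraries. Of these markers Nes and Vim were called higher with the hairpins in the blocked fit described below and Pax6, Prom1 and Hes5 lower. In that fit the median log2 fold change of the 10 markers was -0.49, for the mean of both hairpins. The sum weighs the highest genes most, and 1 marker alone reached 6853 CPM in a library. Microglial markers summed to 0.826 to 3.37 CPM in the hairpin libraries, against 0.639 to 1.90 CPM in the shNT libraries, and 1 of 7 passed the filter.

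Of the 73 genes, 44 passed edgeR's expression filter and were tested: 10 Mmp, 13 Adam, 17 Adamts and all 4 Timp genes. The other 29 reached at most 21 counts in any library. Mmp1a, which is annotated as a polymorphic pseudogene, Mmp1b, Mmp7, Adam18 and Adam25 had 0 counts in all 9 libraries. With a floor of 3 counts this allows at most 0.129 CPM in the shallowest library, which covers counting error only. A run of 10 Mmp genes on chromosome 9 (GRCm38, 7272514 to 7699585) contains Mmp13, Mmp12, Mmp1b, Mmp3, Mmp1a, Mmp10, Mmp8, Mmp27, Mmp20 and Mmp7, the secreted collagenases and stromelysins among them. None of the 10 passed the filter, and together they held 62 counts over the 9 libraries. Of 11 Adam genes on chromosome 8, many of them known from the testis, Adam9 and Adam5 passed.

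Levels were compared between genes as TPM, computed from counts and the summed exon length of each gene. A few genes held most of each family. Mmp15, a membrane-type MMP, averaged 228 TPM over the 9 libraries, with a range of 87.4 to 425 TPM, and had the highest mean of all 73 genes. The range of Adam10 (109 to 244 TPM) overlapped it, and Mmp15 was not the highest in every library. Mmp15 made up 77.4% to 94.6% of the summed Mmp TPM with sh900 and 76.9% to 89.8% with sh902, against 56.7% to 92.7% with shNT. Mmp14 followed at 17.4 TPM, Mmp16 at 6.44 TPM and Mmp17 at 4.82 TPM.

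Among the Adam genes the sheddase Adam10 led at 182 TPM, followed by Adam9 at 153 TPM, Adam12 at 53.9 TPM and the sheddase Adam17 at 39.9 TPM. The Adamts genes were lower and closer together, with Adamts4 at 46.0 TPM, Adamts14 at 40.7 TPM, Adamts7 at 23.8 TPM and Adamts1 at 17.5 TPM. Adamts14 was the most uneven of these 4, with 0.182 TPM in its lowest library and 122 TPM in its highest. Of the inhibitors, Timp2 led at 89.8 TPM, ahead of Timp3 at 34.4 TPM, Timp4 at 16.5 TPM and Timp1 at 14.9 TPM. The ranges of Timp1 (2.42 to 35.6 TPM) and Timp4 (5.32 to 28.5 TPM) overlapped widely, as did those of Adam10 (109 to 244 TPM) and Adam9 (91.9 to 219.7 TPM).

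**Figure D1:**
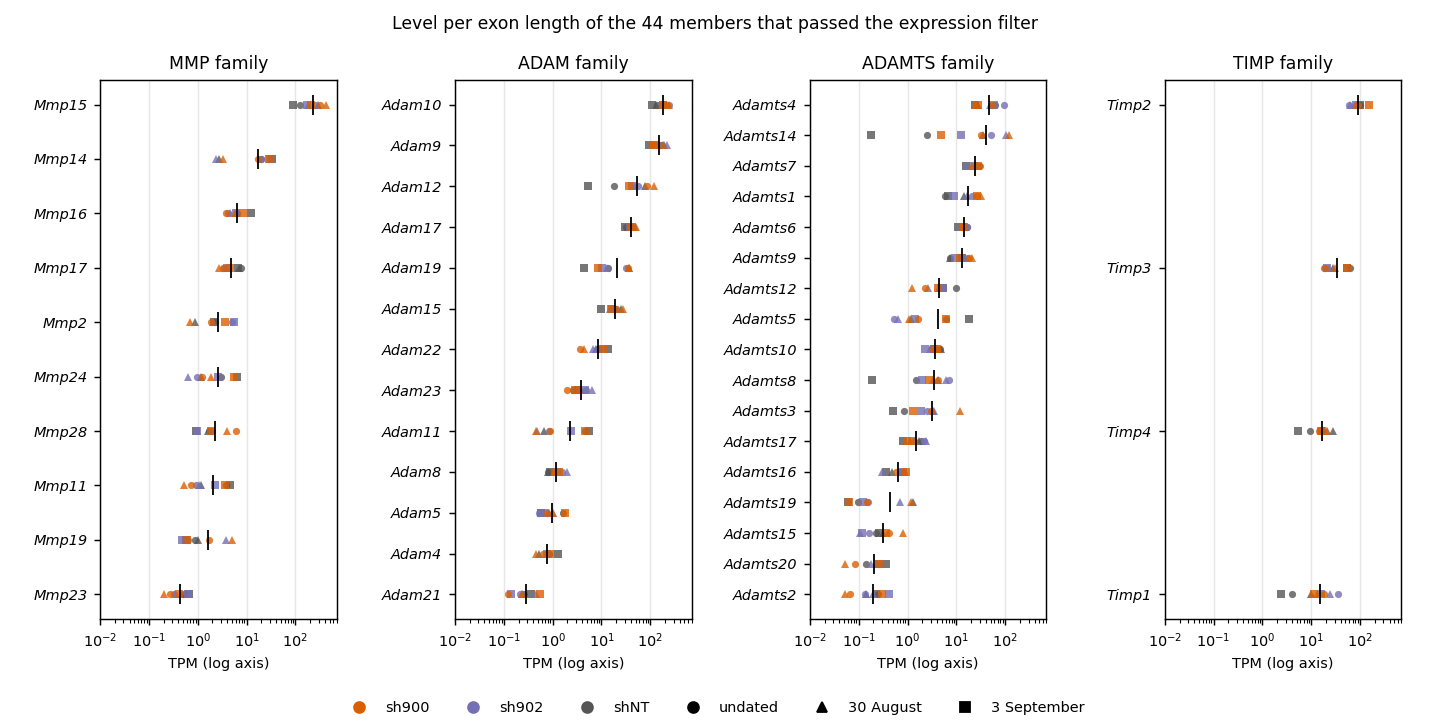
Level per exon length (TPM, log axis) of the 44 genes that passed the expression filter, by family, in the 9 libraries; colour gives the hairpin, marker shape the date label, and the black tick the mean of the 9 libraries. Mmp15 at a mean of 228 TPM and Adam10 at 182 TPM stand at the top, and Adamts14 spans 0.182 to 122 TPM.

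The first question was whether these genes differed between cells with a Phf2 hairpin and cells with shNT. The fit without a term for the date label called none of the 44 genes, and none of the 17602 genes tested, at an adjusted p under 0.05 (edgeR quasi-likelihood F test, 0.0% called in each direction). At an unadjusted p under 0.05 it gave 5 higher and 5 lower genes of the 44, and 2809 of all genes. DESeq2 without the date term called 5 of the 44 and 755 of all genes, and limma-voom called 0 of either. With a replicate block for the date label, edgeR called 9 of the 44 for the mean of both hairpins, and "called", "rose" and "fell" below refer to that blocked fit. Adam10, Adamts1 and Timp1 were called higher, 6.82% of the 44 against 6.08% of all genes tested. Mmp16, Mmp17, Adam11, Adam22, Adamts5 and Adamts12 were called lower, 13.6% against 5.59%. The median log2 fold change was 0.02 over the 44 genes and -0.02 over all genes tested. The median was -0.36 for the Mmp, 0.12 for the Adam, 0.01 for the Adamts and 0.15 for the Timp genes.

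These counts rested on single libraries. In place of 9, the blocked count was 1 without the undated sh900 library, 3 without the sh900 library of 30 August and 6 without that of 3 September. The count was 2 without the undated sh902 library, 13 without that of 30 August and 2 without that of 3 September. Without the undated shNT library no gene of the 44 was called, without that of 30 August 18 were, and without that of 3 September 4 were. Calls over all genes swung as well, from 2054 with all 9 libraries to 257, 3637 and 964 without these controls, in the same order. Without the single hairpin libraries, in the order given, they were 657, 1001, 1437, 646, 2476 and 804. Each of these fits tested 18052 to 18276 genes. The 6 dated libraries alone gave 0 calls with the block, and 1 over all genes. Of the 44 genes, 7 lay above the control of the same label in all 6 hairpin libraries (15.9% against 12.7% of all genes) and 10 lay below it (22.7% against 12.2%). The direction of the 9 fold changes was the same in all of these fits that left out 1 of the 9 libraries.

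Adam10, the sheddase of Notch and of the amyloid precursor protein (chromosome 9, 70678997 to 70780229), rose with both hairpins. It had 479, 449.6 and 348 CPM with sh900, in the order undated, 30 August, 3 September, and 472, 422 and 380.3 CPM with sh902, against 272, 272 and 243 CPM with shNT; this order of labels is kept below. All 6 hairpin libraries were above all 3 controls. Averaged over the hairpins, the log2 fold change was 0.70 ± 0.12 (SE; adjusted p = 0.0131, edgeR with the block; 0.194 without it). It was 0.74 for sh900 (adjusted p = 0.0204) and 0.67 for sh902 (adjusted p = 0.0250). The call for the mean was lost without the undated sh900 library (adjusted p = 0.0529) and without the undated shNT library (0.0824), and Adam10 was the only gene of the 44 called higher with each hairpin, 2.27% against 2.5% of all genes.

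Among the Adam genes with an active protease, only Adam10 was called in this comparison. Adam17, the sheddase of tumour necrosis factor and of EGF-family ligands, had 119, 136 and 117 CPM with sh900 and 127, 150.0 and 116 CPM with sh902, against 93.0, 107 and 99.2 CPM with shNT. The groups did not overlap, but the log2 fold change of 0.36 ± 0.11 was not called (adjusted p = 0.0618). Adam8 did not overlap either, at 1.87 to 3.85 CPM with the hairpins and 1.53 to 1.86 CPM with shNT (adjusted p = 0.144). Adam10, Adam17, Adam8 and Timp1 were the 4 genes of the 44 whose hairpin libraries all lay above all controls, 9.09% against 4.15% of all genes. Adam9 and Adam12 were not called, with log2 fold changes of 0.04 ± 0.11 and 1.42 ± 0.65. Adam12 spread from 25.8 to 349.8 CPM among the shNT libraries alone, which is wider than the distance between the group means.

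Of Adam11, Adam22 and Adam23, which lack an active protease site, Adam11 and Adam22 fell. Adam22 (chromosome 5, 8072352 to 8368160), a receptor for LGI proteins at synapses, had 23.4, 23.5 and 59.2 CPM with sh900 and 46.6, 41.8 and 70.7 CPM with sh902, against 51.0, 46.4 and 88.9 CPM with shNT. Each hairpin library was below the control of its label, while the groups as a whole overlapped. Its log2 fold change was -0.53 ± 0.12 for the mean (adjusted p = 0.0313), -0.84 for sh900 (adjusted p = 0.0167) and -0.22 for sh902 (adjusted p = 0.350). Adam11 (chromosome 11, 102761439 to 102780262) had 2.22, 0.969 and 10.4 CPM with sh900 and 1.94, 1.16 and 5.90 CPM with sh902, against 10.4, 1.62 and 14.3 CPM with shNT, a log2 fold change of -1.33 ± 0.33 (adjusted p = 0.0405). Its 30 August libraries were low in every group. Both calls were kept in 3 of the 9 fits that left out 1 library (sh900 of 3 September, sh902 of 30 August or shNT of 30 August); the adjusted p reached 0.215 for Adam11 and 0.159 for Adam22 in the others.

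Of 5 tested markers of neurons 4 were called lower, Dcx, Tubb3, Elavl3 and Map2, and none higher. The summed neuronal markers were at 476 to 1146 CPM in the hairpin libraries, against 676 to 1964 CPM in the shNT libraries. Of 6 oligodendrocyte-lineage markers 4 were called lower, and their sum was 341 to 817 CPM against 725 to 1298 CPM. Their part in the results on the metalloproteinase genes was not tested, and in these bulk libraries fewer cells of a type and less RNA per cell cannot be told apart.

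Mmp17, a membrane-type MMP held by a lipid anchor (chromosome 5, 129584169 to 129611099), gave the smallest p of the 44 genes. It had 9.42, 6.82 and 12 CPM with sh900 and 9.32, 10.8 and 11.5 CPM with sh902, against 20.7, 19.9 and 19.9 CPM with shNT. The 3 controls lay between 19.9 and 20.7 CPM, and every hairpin library lay below all of them. The blocked fit gave a log2 fold change of -1.02 ± 0.16 (adjusted p = 0.0101 with the block, 0.182 without it), -1.08 for sh900 (adjusted p = 0.0184) and -0.97 for sh902 (adjusted p = 0.0228). Mmp17 was the only gene of the 44 called lower with each hairpin (2.27% against 1.51% of all genes) and the only one whose hairpin libraries all lay below all controls (2.27% against 2.62%). The call for the mean was lost without the undated shNT library (adjusted p = 0.0740) and held in the other 8 fits.

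Mmp16, another membrane-type MMP (chromosome 4, 17852893 to 18119145), had 14.8, 18.4 and 30.2 CPM with sh900 and 14.6, 16.5 and 22.9 CPM with sh902, against 22.2, 23.3 and 47.2 CPM with shNT. Each hairpin library was at 0.485 to 0.789 of the control of its label. Its log2 fold change was -0.61 ± 0.14 (adjusted p = 0.0269), and the call was kept without the 30 August library of sh902 or of shNT and lost in the other 7 fits, with an adjusted p up to 0.127. Mmp15 and Mmp14, the family's highest genes, were not called. Mmp15 had 767, 858 and 432 CPM with sh900 and 544, 409 and 406 CPM with sh902, against 266, 668 and 213 CPM with shNT, so that the 30 August control lay among the hairpin libraries. Its log2 fold change was 0.69 ± 0.30 (adjusted p = 0.179). Mmp14 had a log2 fold change of -0.11 ± 0.13 (adjusted p = 0.635).

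Adamts1 and Adamts5, both proteoglycan-cutting proteases, are neighbours on chromosome 16 (85793827 to 85803113 and 85856173 to 85901828), 53059 bases apart, and were called in opposite directions. Adamts1 had 61.8, 62.1 and 55 CPM with sh900 and 44.4, 36.7 and 20.8 CPM with sh902, against 12.5, 32.2 and 16.2 CPM with shNT. It was high in all sh900 libraries, while the sh902 and shNT libraries overlapped. Its log2 fold change was 1.20 ± 0.29 (adjusted p = 0.0385), 1.67 for sh900 (adjusted p = 0.0245) and 0.74 for sh902 (adjusted p = 0.174). Adamts5 had 7.90, 4.41 and 25.6 CPM with sh900 and 2.34, 2.91 and 6.63 CPM with sh902, against 27.0, 5.41 and 89.1 CPM with shNT. The 30 August control was as low as the hairpin libraries, and the other controls were above all of them. The log2 fold change was -2.13 ± 0.43 (adjusted p = 0.0277), -1.40 for sh900 (adjusted p = 0.136) and -2.85 for sh902 (adjusted p = 0.0272). The Adamts1 call was kept in 1 of the 9 fits (without the 30 August control; adjusted p up to 0.112 in the others) and the Adamts5 call in 2 (without the 30 August library of sh902 or of shNT; up to 0.181).

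Adamts12 (chromosome 15, 11064790 to 11349231), which is known to cut cartilage oligomeric matrix protein, fell. It had 10.9, 4.95 and 18.3 CPM with sh900 and 23.7, 12 and 22.7 CPM with sh902, against 44.2, 20.8 and 26.0 CPM with shNT. On the log2 scale the change was -1.08 ± 0.23 (adjusted p = 0.0226), and the call was kept in 4 of the 9 fits, without sh900 of 3 September, sh902 of 30 August, or shNT of 30 August or 3 September; in the others the adjusted p reached 0.164. Adamts14, a procollagen protease, was not called (log2 fold change 3.23 ± 0.77, adjusted p = 0.0523). It had 73.8, 237 and 9.84 CPM with sh900 and 108, 233 and 27.7 CPM with sh902, against 5.14, 79.5 and 0.427 CPM with shNT. Each hairpin library was 2.93 to 64.8 times its same-label control, while the controls themselves ranged from 0.427 to 79.5 CPM. Adamts3, the related procollagen protease that also cuts reelin, lay next to it at a log2 fold change of 1.41 ± 0.38 (adjusted p = 0.0519). Adamts4 and Adamts7, among the family's highest, had log2 fold changes of 0.37 ± 0.14 (adjusted p = 0.123) and -0.03 ± 0.19 (adjusted p = 0.948).

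Of the inhibitors, Timp1 rose. Timp1 (chromosome X, 20870166 to 20874735), a secreted inhibitor of most MMPs, had 7.22, 4.31 and 3.86 CPM with sh900 and 12.7, 9.04 and 6.07 CPM with sh902, against 1.41, 3.68 and 0.970 CPM with shNT. All hairpin libraries lay above all controls, narrowly so in the case of the 30 August control. The log2 fold change was 1.85 ± 0.38 (adjusted p = 0.0225), 1.48 for sh900 (adjusted p = 0.0651) and 2.23 for sh902 (adjusted p = 0.0191). The call for the mean was kept in 3 of the 9 fits, those without a 30 August library of any group, and the adjusted p reached 0.115 in the others. Timp1 lies inside Syn1 on the opposite strand; their annotated exons share 0 bases, and Syn1 was not called (log2 fold change -0.23, adjusted p = 0.580).

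Timp2, Timp3 and Timp4 were not called. Timp3, the matrix-bound inhibitor that also acts on ADAM17 and on ADAMTS4 and ADAMTS5, had 69.9, 92.2 and 167 CPM with sh900 and 60.7, 79.5 and 73.2 CPM with sh902, against 204, 95.3 and 203 CPM with shNT. All 6 hairpin libraries were below the control of their label, with a log2 fold change of -0.91 ± 0.27 (adjusted p = 0.0715). Syn3, on the opposite strand, shares 1733 exon bases with Timp3 and had at most 3.76 CPM. The share of Timp1 in the summed Timp TPM was 4.84% to 12.9% with sh900 and 11.7% to 27.3% with sh902, against 1.48% to 6.65% with shNT. That of Timp3 was 13.6% to 22.9% with sh900 and 14.2% to 17.6% with sh902, against 18.8% to 35.2% with shNT. Timp2 held the highest share in every library, at 46.1% to 65.3%.

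**Figure D2:**
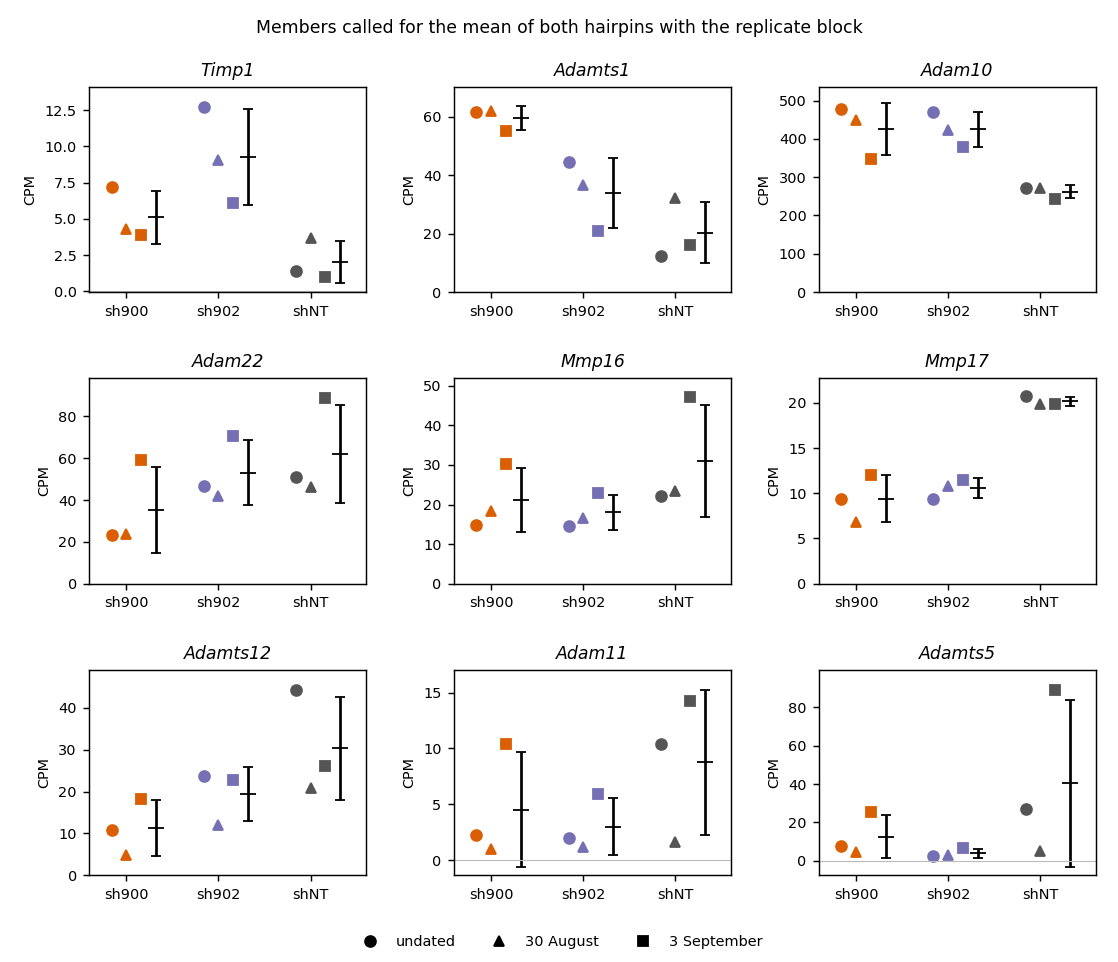
Level in CPM of the 9 genes called for the mean of both hairpins with the replicate block, by hairpin group (sh900, sh902, shNT); marker shape gives the date label, and the bar beside each group its mean and SD over 3 libraries. Mmp17 lies at 6.82 to 12 CPM in the hairpin libraries and at 19.9 to 20.7 CPM in the controls; the groups of Adam11, Adam22, Mmp16, Adamts1, Adamts5 and Adamts12 overlap.

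**Figure D3:**
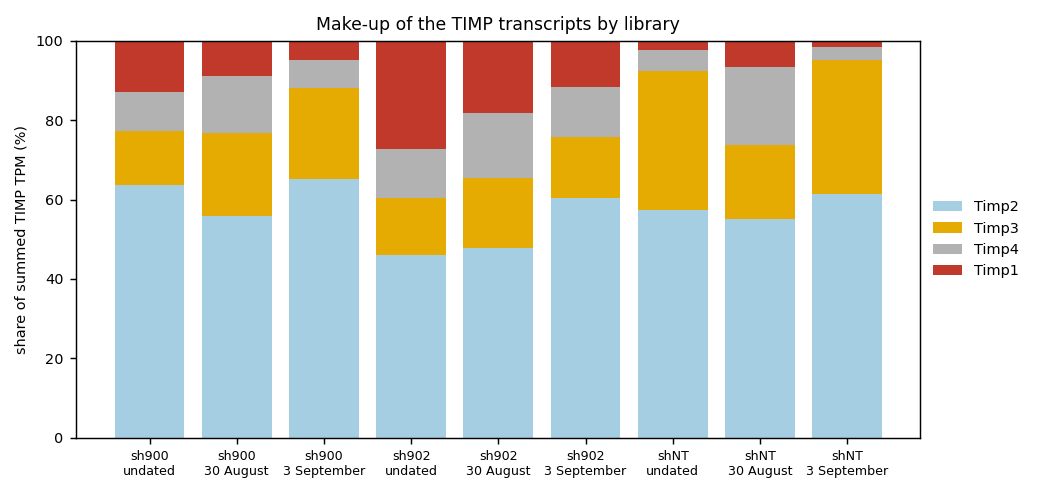
Share of each inhibitor in the summed TPM of Timp1 to Timp4 (%, stacked bars), for each of the 9 libraries. The share of Timp1 is highest with sh902, at 11.7% to 27.3%, and lowest with shNT, at 1.48% to 6.65%.

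Promoters of the 3 genes that were called higher are shown because all 3 had an entry among RefSeq's promoters (GRCm38.p6), which covered 44 of the 73 genes, a set other than the 44 tested. Each runs from 250 bases before to 50 bases after the annotated start, on the gene's strand, which is the plus strand for Adam10 and Timp1 and the minus strand for Adamts1. Capitals mark matches, on either strand, to the AP-1 motif TGAGTCA, its 1-letter variant TGAGTAA, the E-box CACGTG, the GC box GGGCGG or the TATA box TATAAA; adjoining or overlapping matches run together.
Adam10 (chr9:70678732-70679031): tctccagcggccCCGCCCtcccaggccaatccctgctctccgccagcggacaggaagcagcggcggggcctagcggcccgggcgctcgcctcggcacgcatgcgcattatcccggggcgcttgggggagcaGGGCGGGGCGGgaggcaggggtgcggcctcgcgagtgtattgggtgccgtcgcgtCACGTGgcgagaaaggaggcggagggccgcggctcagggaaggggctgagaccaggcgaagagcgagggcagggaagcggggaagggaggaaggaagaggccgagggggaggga
Adamts1 (chr16:85803064-85803363): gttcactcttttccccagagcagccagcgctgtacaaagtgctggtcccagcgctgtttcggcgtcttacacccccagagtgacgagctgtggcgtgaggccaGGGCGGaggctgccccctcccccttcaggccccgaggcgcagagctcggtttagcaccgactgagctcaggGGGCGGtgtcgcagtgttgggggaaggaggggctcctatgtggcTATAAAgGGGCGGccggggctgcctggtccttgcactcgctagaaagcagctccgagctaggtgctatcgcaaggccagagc
Timp1 (chrX:20869916-20870215): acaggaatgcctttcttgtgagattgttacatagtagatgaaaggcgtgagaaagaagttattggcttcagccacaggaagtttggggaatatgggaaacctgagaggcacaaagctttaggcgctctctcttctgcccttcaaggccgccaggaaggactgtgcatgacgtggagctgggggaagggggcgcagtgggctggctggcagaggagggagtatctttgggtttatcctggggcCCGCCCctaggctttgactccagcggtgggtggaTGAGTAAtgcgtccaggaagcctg
The Adam10 window held 3 GC boxes, of which 2 overlap, and an E-box. The Adamts1 window held 3 GC boxes and a TATA box just before the third. The Timp1 window held 1 GC box and the AP-1 variant, which starts 27 bases into the transcript. Of 32851 promoters of the same length, 5.2% held the AP-1 motif, 2.68% its variant, 7.15% the E-box, 35.7% the GC box and 13.6% the TATA box. Timp1 was the only one of the 44 matched genes with the variant. The AP-1 motif was found for 9 genes, Adam19, Adam29, Mmp10, Mmp12, Mmp13, Mmp1a, Mmp1b, Mmp3 and Mmp7, of which Adam19 alone passed the expression filter. Neither of the windows of Adam22 and Adamts12, which fell, held any of these motifs. Of the 9 genes called, 5 had a promoter entry. Mmp16, Mmp17, Adam11 and Adamts5, which also fell, had none, so genes that rose and fell cannot be compared here. A match is a string of letters and not a measured binding site.

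The second question was whether the hairpins differed from each other. With sh900, 4 genes were called higher (Mmp28, Adam10, Adamts1 and Adamts3; 9.09% against 5.39% of all genes) and 3 lower (Mmp17, Adam22 and Adamts12; 6.82% against 3.45%). With sh902, 5 were called higher (Mmp2, Adam10, Adam23, Adamts4 and Timp1; 11.4% against 5.12%) and 5 lower (Mmp16, Mmp17, Mmp24, Adamts5 and Adamts10; 11.4% against 5.39%). Without the 30 August control each hairpin gave 17 calls, and without the undated control each gave 0. The sh900 count was also 0 without the undated or the 30 August sh900 library and 3 without the undated sh902 library. The sh902 count was also 0 without the undated or the 3 September sh902 library, and 3 without the undated sh900 library or the 3 September control. It was 6 without the 3 September sh900 library. Over all genes, leaving out 1 library gave 88 to 2912 calls for sh900 and 45 to 3757 for sh902. With all 9 libraries the calls over all genes were 1557 and 1850. The calls of Mmp17 were kept in 6 of 9 fits with each hairpin, and those of Adam10 in 5 with sh900 and 4 with sh902. Those of Mmp28 and Adamts3 with sh900 were kept in 3 each, with an adjusted p up to 0.242 and 0.263 in the others. The test of sh902 minus sh900 itself called 4 genes, Adam23 and Adamts4 higher with sh902 (4.55% against 1.74% of all genes) and Mmp28 and Adamts15 lower (4.55% against 2.48%). Without the 30 August control this count was 9, without that of 3 September 2, without the sh900 library of 3 September 1, and without any other hairpin library 0. Over all genes the calls between the hairpins ran from 0 to 1992 in such fits, against 743 with all 9 libraries. The fit without the block called 0 of the 44 in each of these comparisons and 0.0% of all genes. Between the hairpins, 2532 genes had an unadjusted p under 0.05 in that fit. DESeq2 without the block called 3 of the 44 between the hairpins, and 1035 of all genes.

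Adam23, an adhesion protein without an active protease site, had 34.0, 47.8 and 36.1 CPM with sh902, against 15.7, 23.2 and 19.8 CPM with sh900, and 18.6, 28.5 and 26.3 CPM with shNT. The sh902 libraries lay above all others. The log2 difference between the hairpins was 0.94 ± 0.14 (adjusted p = 0.0224), and the change from shNT was 0.66 with sh902 (adjusted p = 0.0261) and -0.28 with sh900 (adjusted p = 0.249). Adamts4, which cuts aggrecan-type proteoglycans, had 179.7, 98.1 and 119 CPM with sh902, against 112, 42.6 and 51.1 CPM with sh900, and 119, 56.5 and 51.5 CPM with shNT, a log2 difference between the hairpins of 0.97 ± 0.16 (adjusted p = 0.0254).

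Mmp28, a secreted MMP also called epilysin, had 3.00, 1.63 and 1.64 CPM with sh902, against 10.2, 5.89 and 2.78 CPM with sh900, and 2.68, 2.63 and 1.63 CPM with shNT. The log2 difference was -1.56 ± 0.33 (adjusted p = 0.0440). Adamts15, a protease of versican and aggrecan, had 0.688, 0.471 and 0.517 CPM with sh902, against 1.91, 3.09 and 1.47 CPM with sh900, and 0.930, 1.39 and 1.24 CPM with shNT, so it rested on few counts. The log2 difference was -1.95 ± 0.40 (adjusted p = 0.0388), with the sh902 libraries below and the sh900 libraries above all controls. Leaving out any of the 6 hairpin libraries removed the calls for Adam23, Adamts4 and Adamts15, with an adjusted p up to 0.171, 0.165 and 0.201, and for Adamts15 so did leaving out the 3 September control. The Mmp28 call was kept without the sh900 library of 3 September or the undated or 30 August control, and lost in the other 6 fits (adjusted p up to 0.234). A gene model on the opposite strand, 1700020L24Rik, shares 466 exon bases with Mmp28 and had 0.258 to 2.47 CPM in the hairpin libraries, against 0.0752 to 0.298 CPM in the shNT libraries; reads of the shared stretch cannot be told apart.

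Mmp2, Mmp24 and Adamts10 were called with sh902 and not with sh900, but not between the hairpins. Mmp2, the gelatinase that Mmp14 activates, had 6.82, 3.00 and 7.93 CPM with sh902, against 3.01, 1.28 and 3.22 CPM with shNT, 2.26 to 2.46 times the control of each label (log2 fold change 1.21 ± 0.27, adjusted p = 0.0296). With sh900 its log2 fold change was 0.05 (adjusted p = 0.937), and between the hairpins 1.16 (adjusted p = 0.0517). Mmp24 and Adamts10 had log2 fold changes of -1.33 ± 0.32 (adjusted p = 0.0391) and -0.73 ± 0.16 (adjusted p = 0.0300) with sh902. These 3 calls were kept in 3, 2 and 1 of the 9 fits that left out 1 library, and the adjusted p reached 0.161, 0.175 and 0.148 in the others. Mmp24 shares 637 exon bases with BC029722 on the opposite strand, which had 14.1 to 29.0 CPM over all libraries. For Adamts1, Adamts12, Adam22 and Adamts3, called with sh900 alone, the difference between the hairpins was not called (adjusted p = 0.138, 0.135, 0.0562 and 0.535), nor was it for Timp1 (0.299), Mmp16 (0.385) or Adamts5 (0.168), called with sh902 alone.

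**Figure D4:**
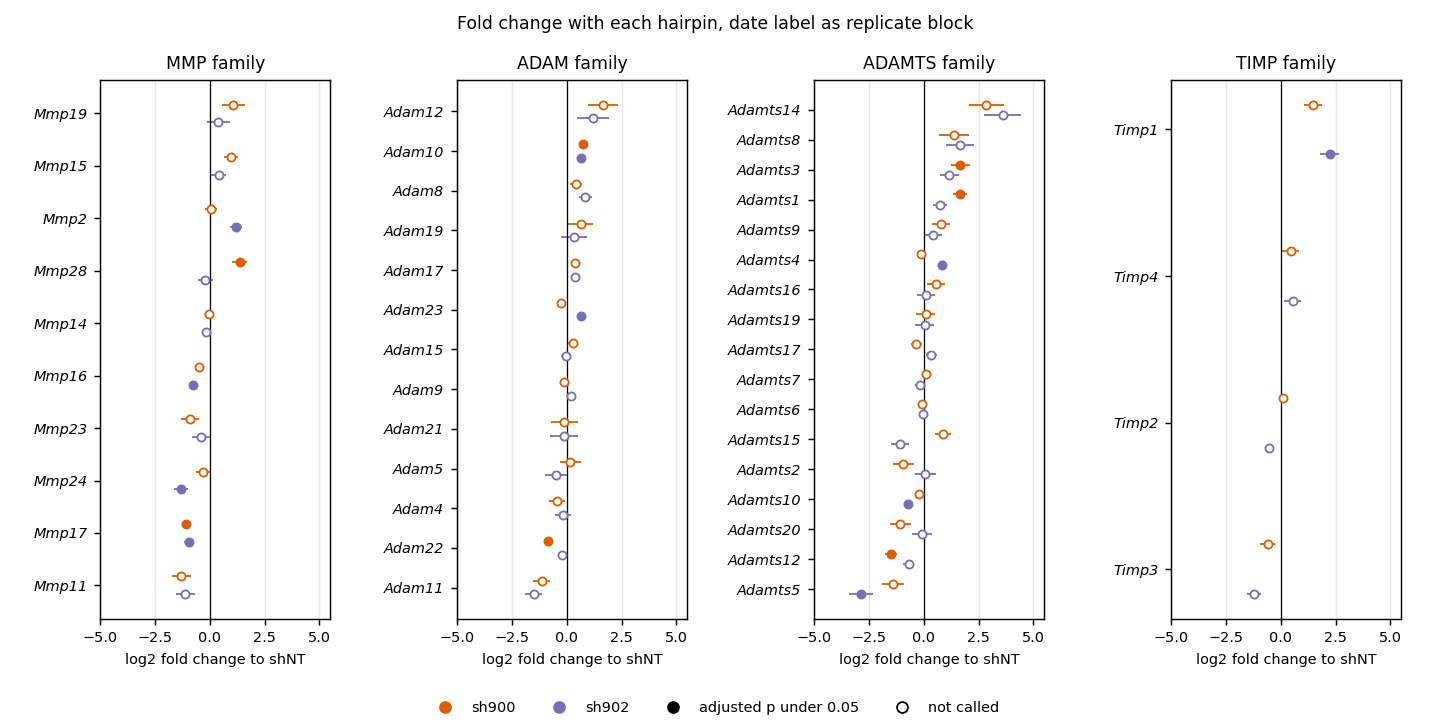
Log2 fold change to shNT with sh900 and with sh902, with its standard error, for the 44 genes tested, by family, from the edgeR fit with the date label as replicate block; filled points have an adjusted p under 0.05. Adam10 and Mmp17 are filled with both hairpins, and Adam23, Adamts4, Mmp28 and Adamts15 show the hairpins on opposite sides of 0.

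The same libraries were also compared by date label. Between 3 September and 30 August, in a model with hairpin group and date label, edgeR called 16 of the 44 genes: 10 were higher (22.7% of the 44 against 10.4% of all genes) and 6 lower (13.6% against 10.1%). Higher on 3 September were Mmp2, Mmp11, Mmp14, Mmp16, Mmp24, Adam11, Adam22, Adamts5, Adamts12 and Timp2, and lower were Mmp19, Adam9, Adam15, Adamts3, Adamts14 and Adamts19. DESeq2 called 10 higher and 12 lower and limma-voom 9 higher and 10 lower, so which direction held more calls turned with the tool. Over all genes DESeq2 called 2239 higher and 2146 lower, and limma-voom 2053 and 1920. The count of 16 was 8 without the sh900 library of 30 August and 7 without that of 3 September, and 11 to 17 without any other library. Over all genes the calls were 3613 with all libraries, 1294 and 1090 without those of sh900, and 1888 to 3990 without any other. When libraries were left out singly, the calls of Timp2, Adam15, Adamts12, Mmp16, Mmp11 and Adamts3 were kept in 1, 2, 2, 4, 5 and 7 of the 9 fits, with an adjusted p up to 0.201, 0.208, 0.185, 0.101, 0.114 and 0.0610 in the others. The libraries of 3 September all lay above those of 30 August for 11 genes (25.0% against 20.0%) and all below for 9 (20.5% against 10.5%).

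Mmp14, the activator of Mmp2, had 70.0, 72.5 and 87.9 CPM in the sh900, sh902 and shNT libraries of 3 September, against 7.43, 6.08 and 6.91 CPM in those of 30 August, and 45.4, 48.4 and 47.3 CPM in the undated ones. The 3 hairpin groups lay close together within each label. Between these dates the log2 fold change was 3.38 ± 0.17 (adjusted p = 9.51e-05), and it was 3.30 to 3.53 when 1 library was left out. Mmp2 itself had 4.71, 7.93 and 3.22 CPM on 3 September, against 0.861, 3.00 and 1.28 CPM on 30 August (log2 fold change 1.61 ± 0.28, adjusted p = 0.0071). Adam11 and Adamts5 followed with log2 fold changes of 2.87 ± 0.42 (adjusted p = 0.00412) and 2.42 ± 0.54 (adjusted p = 0.0253). The Adamts5 call was lost without any 1 of the 3 sh900 libraries (adjusted p up to 0.102).

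In the other direction, Adamts14 had 9.84, 27.7 and 0.427 CPM in the sh900, sh902 and shNT libraries of 3 September, against 237, 233 and 79.5 CPM in those of 30 August. The log2 fold change was -4.99 ± 0.88 (adjusted p = 0.0154), and the call was lost without the sh900 library of 3 September (adjusted p = 0.0886). Adamts19, a protease with few known substrates, had 0.347, 0.732 and 0.388 CPM on 3 September, against 6.25, 4.11 and 7.93 CPM on 30 August, while the undated libraries lay at 0.558 to 0.926 CPM. Its log2 fold change was -3.75 ± 0.46 (adjusted p = 0.0022), with the call kept in all 9 fits. Mmp19 had 0.849, 0.732 and 0.931 CPM on 3 September, against 6.50, 5.82 and 1.54 CPM on 30 August (log2 fold change -2.40 ± 0.54, adjusted p = 0.0188); without the sh900 library of either date or the sh902 library of 3 September the call was lost (adjusted p up to 0.109). Mmp19 shares 789 exon bases with Tmem198b on the opposite strand, which had 43.4 to 113 CPM over all libraries, so its low values are uncertain.

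Cell-type markers also moved with the date label. Summed astrocyte markers were at 3483 to 6433 CPM on 3 September, against 1448 to 1972 CPM on 30 August, and summed neuronal markers at 898 to 1964 CPM against 476 to 676 CPM. Cycling-cell markers overlapped, at 145 to 1120 CPM against 449 to 2045 CPM. Their part in the date differences was not tested, and each label held 1 library of each group.

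**Figure D5:**
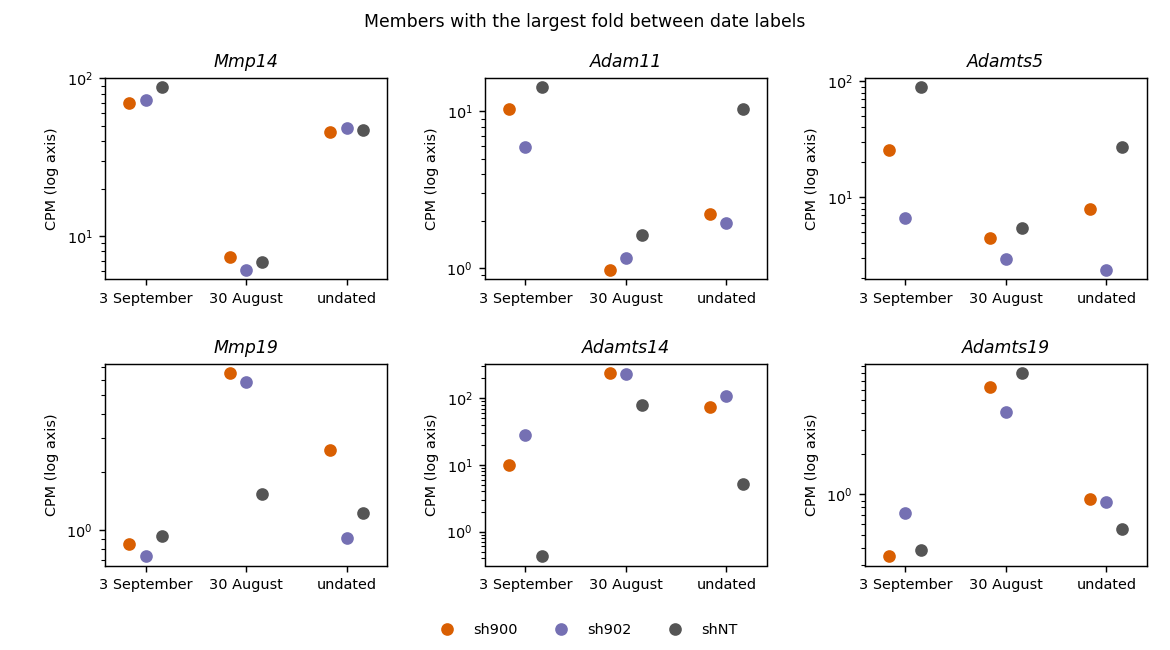
Level in CPM (log axis) of the 3 genes with the largest fold in each direction among those called between 3 September and 30 August, by date label, with the undated libraries at the right and 1 point per hairpin group. Mmp14 lies at 70.0 to 87.9 CPM on 3 September and at 6.08 to 7.43 CPM on 30 August, whichever the hairpin.

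Genes that work with these proteases were counted in the same blocked fit for the mean of both hairpins, in which 6.08% of all genes were higher and 5.59% lower at a median of -0.02; changes are log2 fold changes with their SE. The lists were chosen with earlier results of these data known, so their counts describe them and test nothing. Whether the calls of single listed genes held with 1 library left out was not examined. Over all genes the calls fell from 2054 to 257 without the undated shNT library. Of 15 tested activators and inhibitors of proteolysis outside the 4 families, 5 rose and 2 fell, with a median log2 fold change of 0.36. Among them was Plaur, the urokinase receptor, which averaged 2.51 ± 2.76 CPM with sh900 and 1.51 ± 1.18 CPM with sh902, against 0.312 ± 0.365 CPM with shNT (log2 fold change 2.81, edgeR adjusted p = 0.0112; SD, n = 3 libraries each). Pcsk6, a furin-like proprotein convertase, rose by 1.61 ± 0.26 (adjusted p = 0.0121). Spock2 and the convertase Pcsk5 fell, by 1.40 and 1.46 on the log2 scale (adjusted p = 0.0159 and 0.0321). Of 8 partners of ADAM sheddases, Rhbdf1, which carries ADAM17 to the cell surface, and Frmd8, which steadies that complex, rose by 0.83 ± 0.17 and 0.76 ± 0.16 (adjusted p = 0.0193 and 0.0233), and none fell.

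Of 15 tested membrane proteins known to be shed by ADAMs, 7 rose and 1 fell, with a median log2 fold change of 0.83. Nrg1, an EGF-family ligand, averaged 22.3 ± 3.50 CPM with sh900 and 14.1 ± 6.41 CPM with sh902, against 4.48 ± 2.03 CPM with shNT (SD, n = 3 libraries each; log2 fold change 2.03, edgeR adjusted p = 0.00338). App, the amyloid precursor, averaged 645 ± 106 and 598 ± 27.5 CPM, against 353 ± 33.5 CPM (log2 fold change 0.83, edgeR adjusted p = 0.00991, n = 3 libraries each). Cd44, a hyaluronan receptor, rose by 1.28 ± 0.15 (adjusted p = 0.00519), and Ereg, an EGF receptor ligand that had few counts in the controls, was called higher as well (adjusted p = 0.00720). The Notch ligand Dll1 was the one that fell, by 1.13 ± 0.22 (adjusted p = 0.0195).

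Of 11 tested brain matrix proteins cut by metalloproteinases, Tnc, the matrix glycoprotein tenascin C, rose by 1.90 ± 0.32 (adjusted p = 0.0126) and Bcan, the proteoglycan brevican, fell by 0.68 ± 0.17 (adjusted p = 0.0376). The list's median was -0.52. Of 7 AP-1 genes, Fosl2 and Jun rose by 1.64 ± 0.18 and 0.97 ± 0.19 (adjusted p = 0.00492 and 0.0196), with a median of 0.86. Of 7 ADAMTS-like genes, Adamtsl3 rose by 1.67 ± 0.23 (adjusted p = 0.00765), and of 5 tested metalloproteinase genes that the symbol patterns leave out, Ece2, an endothelin-converting enzyme, fell by 1.45 ± 0.22 (adjusted p = 0.00888). The fit without the block called none of these genes.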

How the data were processed

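The deposited table held expected counts per gene, which the authors made with FastQC, cutadapt, Trimmomatic 0.36, STAR 2.5.0a and RSEM on GRCm38, per the submitters' processing notes. These notes give no order of steps; the sources used here name no annotation release and no counting options. All deposited expected counts were whole, and rounding left them as they were. RSEM shares reads between similar genes by a model, and the labels' protocols do not state that strand was kept, so values of paralogs and overlapping genes are uncertain. Library totals ran from 23212472 to 32392496, at which 1 CPM is 23.2 to 32.4 counts.

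Symbols, positions and exon lengths came from GENCODE M21 (GRCm38), matched by identifier (54165 matched, 67 did not). Here CPM is a count divided by the library total, times 1000000, and TPM was computed from the counts and exon lengths. In R 4.3.3, edgeR 4.0.16 (TMM factors, default filter by group, robust quasi-likelihood F test) was fitted to all 17602 genes that passed the filter, with 9 libraries and 3 groups, without a block. Benjamini-Hochberg adjusted p under 0.05 was a call, and standard errors are the absolute log2 fold change over the root of the F statistic. The date contrast used group and date label together. The scripts were tested on simulated data. DESeq2 1.42.0 and limma 3.58.1 (voom), other scalings and filters, subsets of groups, the 6 dated libraries and leaving out libraries singly were alternatives.

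The pairing comes from the dates in the titles. Pearson's r of the libraries' log2 deviations from their group's mean was 0.402 to 0.627 within 30 August, 0.456 to 0.645 within 3 September, 0.0799 to 0.399 within the undated libraries and -0.661 to 0.302 between different labels. Pairing was accepted for the dated libraries and is uncertain for the others, so the fit with the date label as replicate block stands beside the other. No library repeated another: within groups, chi-square per degree of freedom was at least 56.5.

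The members and gene lists were chosen with earlier results of these data known. Named genes were the members called in any hairpin contrast, the 4 highest per family by TPM, the 3 with the largest date fold per direction, those at 0 throughout, and up to 4 called genes per related list. Adam8, the other markers and the overlapping genes were named after their values were seen.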

Additional observations from a re-analysis of the deposited data

Results flagged for a closer look

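In 4 genes the effects of the hairpins differed by the test of sh902 minus sh900 with the replicate block. The log2 differences were -1.56 for Mmp28, 0.94 for Adam23, 0.97 for Adamts4 and -1.95 for Adamts15. None of these 4 was called by edgeR without the block. DESeq2 without the block called 3 of the 44 genes in this comparison.

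In 4 further genes both hairpin libraries of 1 date label lay above their shNT library and both of another label below theirs; these differences were not tested. For Mmp19 the mean log2 ratio to shNT was -0.24 on 3 September and 2.0 on 30 August, a difference of -2.24. For Adamts7 it was 0.56 on 3 September and -0.61 on 30 August, a difference of 1.17. For Timp4 it was 1.49 on 3 September, -0.54 on 30 August and 0.77 in the undated libraries, which gives 2.03 for 3 September minus 30 August and -1.31 for 30 August minus undated. For Adamts19 it was -0.65 on 30 August and 0.69 in the undated libraries, a difference of -1.34. Each ratio of a label rests on 1 shNT library, so both ratios of a label share its deviation. Timp4 lies inside Syn2 on the opposite strand, shares 90 exon bases with it, and Syn2 had 43.4 to 113 CPM in the hairpin libraries, against 78.8 to 147 CPM in the shNT libraries.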

How the results depend on the processing

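Without the block, edgeR called 0 of the 44 genes in each hairpin comparison. With the replicate block it called 9 for the mean of both hairpins, 7 for sh900, 10 for sh902 and 4 for sh902 minus sh900. DESeq2 called 5, 3, 6 and 3 in the same order, DESeq2 with the replicate block 16, 13, 16 and 10, and limma-voom with the replicate block 10, 8, 14 and 6. Of all 17602 genes tested, edgeR with the block called 2054, 1557, 1850 and 743, and DESeq2 without it 755, 786, 848 and 1035. With the block DESeq2 called 3014, 2590, 2833 and 1783 of them, and limma-voom 2312, 1840, 2146 and 877. The count stayed at 0 with RLE factors, library size alone, limma-voom, no low-count filter, a filter of 1 CPM in 3 libraries, the compared groups alone, the dated libraries alone with or without the block, and each library left out without the block. With the block, leaving out 1 library gave 0 to 18 for the mean, 0 to 17 for sh900, 0 to 17 for sh902 and 0 to 9 for sh902 minus sh900; the counts in between included 2 for the mean without the sh902 library that is undated or of 3 September, 11 for sh902 without its own 30 August library, and 2 between the hairpins without the 3 September control. The count of 16 between date labels ran from 7 to 17 when 1 library was left out. Over all genes the hairpin ranges were 257 to 3637, 88 to 2912, 45 to 3757 and 0 to 1992, in the same order. Between date labels the range over all genes was 1090 to 3990. Scaling by library size alone moved the median log2 change of all genes between dates to 0.09, against -0.02 with TMM, and the calls over all genes to 2244 higher and 1354 lower, against 1837 and 1776; of the 44 genes 10 were then higher and 5 lower. Among the named genes, the fold for the mean of both hairpins changed sign in at least 1 setting for Mmp14, Adam9, Adamts7, Adamts15, Adamts19 and Timp4. For Adamts19 it was -0.41 without the block, 0.06 with it and 2.28 without the block and the 30 August control. None of these genes was called for that mean in those settings. Adamts17, not a named gene, also changed sign (-0.03 without the block, 0.01 with it), and this list does not cover the other genes. Sign changes in the other contrasts were not counted. The cause of these shifts was not tested. Genes near 1 CPM, such as Adamts15 and Adamts19, rest on few counts, and with 3 libraries per group small changes were not detectable.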
